A study of Rattus norvegicus with 10 samples.

Results

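The proximal ends of rat autosomes are described here, that is, the first 3 Mb of chromosomes 1 to 19 as numbered in the rat genome RN4. The last autosome was left out. All regions of the methyl-capture table on chromosomes 1 to 19 that ended at or before position 3000000 were taken, without regard to any measured value. This gave 8621 of 574544 regions (1.50%). The table holds DNA of the hippocampus of male Sprague-Dawley rats 3 months after status epilepticus (SE) evoked by electrical stimulation through an electrode in the amygdala. SE was ended with diazepam. Age-matched sham-operated controls carried the same electrodes and were never stimulated. The labels name the dorsal hippocampus and the methods name tissue with CA3 and dentate gyrus, and both give 1 library per rat. Each group had 5 rats in the labels, where control rat 2 and SE rat 7 carry the remark discarded. The comparison was made between control rats 1, 3, 4 and 5 and SE rats 6, 8, 9 and 10. The table holds DNA regions only, and the tissue could not be checked against marker genes. In a tissue of mixed cells, a change in the share of a cell type and a change of methylation within cells cannot be told apart.

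Methyl-capture pulls down DNA fragments through a protein domain that binds methylated CpG sites. A tag count therefore rises with the number of methylated CpG sites in a region and with the copies of it that the aligner places there, and it is not the methylation level of a single cytosine. The ends of chromosomes are rich in repeats, and the sequence beside a centromere holds satellite repeats and duplicated blocks that are heavily methylated in most somatic cells. In the standard rat karyotype chromosomes 2 and 4 to 10 are telocentric, so that their first bases lie beside the centromere. On chromosomes 1, 3 and 11 to 19 the first bases are those of the short arm. Tags from near-identical copies of a repeat cannot be assigned with certainty, and how such tags were placed is not given in the sources used here. Genes and sequences of the regions were not analysed here.

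The 8 libraries used held 5499370 to 7179519 tags, and the regions of the proximal ends took 2.10% of them. The share was 2.07%, 2.19%, 2.22% and 2.15% in control rats 1, 3, 4 and 5, with a mean of 2.16% ± 0.065 (SD, n = 4). It was 2.09%, 2.08%, 2.03% and 2.02% in SE rats 6, 8, 9 and 10, with a mean of 2.05% ± 0.038 (SD, n = 4). Control rat 1 lay within the range of the SE rats, and the other 3 control rats lay above all SE rats. The 95% Wilson intervals, which cover counting error only, reached at most 0.0123 percentage points to either side. Most of this gap came from the ends of chromosomes 2 and 3: without them the control rats had a share of 1.43% ± 0.028 (SD, n = 4), the SE rats had 1.41% ± 0.010 (SD, n = 4), and the groups overlapped. Of the discarded rats, control rat 2 had 1.93% and SE rat 7 had 1.49%. SE rat 7 had no tag in 16.4% of the proximal regions, against 0.464% to 1.24% in the 8 libraries used.

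Regions at the proximal ends stood farther apart than those of the interior, which is the rest of each of these chromosomes without the last 3 Mb. The local density, counted as how many regions lay within 50 kb of the midpoint of a given region, had a median of 22 at the proximal ends and of 32 in the interior. Lengths were alike, with medians of 453 bp and 457 bp. Wide regions of at least 2 kb made up 1.08% of the proximal regions and 0.303% of the interior regions.

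More regions were hypomethylated than hypermethylated at the proximal ends after SE in the main fit. This order did not hold once each library's trend on local density was removed (35 and 39, given below). A region was called hypomethylated or hypermethylated when it held fewer or more tags in SE and the quasi-likelihood test of edgeR gave an unadjusted p below 0.01. Of the 8621 proximal regions, 4429 had enough tags to be tested, and the other 4192 held 5 to 69 tags summed over the 8 libraries. Among the tested proximal regions 79 were hypomethylated (1.78%), against 1.07% of all 291987 tested regions, and 21 were hypermethylated (0.474%), against 0.584% of all. Interior regions weighted to the same local densities had 1.73% hypomethylated and 0.435% hypermethylated. The share of hypomethylated regions was thus above that of the whole table and close to that of interior stretches equally sparse. This closeness rested on the end of chromosome 9. Without that end, left out after seeing the data, 1.34% were hypomethylated, against 1.69% in the interior of matched density. The distal ends, the last 3 Mb of the same chromosomes, went the other way, with 0.690% hypomethylated and 0.873% hypermethylated.

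Every SE rat lay below every control rat in 105 tested proximal regions (2.37%, against 1.94% of all tested regions) and above in 62 (1.4%, against 1.69%). After Benjamini-Hochberg adjustment of edgeR's p-values over all regions, no proximal region was below 0.05, and 0.00616% of all tested regions were. The smallest adjusted p at a proximal end was 0.126, and 369 proximal regions had an unadjusted p below 0.05. With edgeR's exact test and with DESeq2 the count was also 0. It was 9 without control rat 1, where 81 of all 289562 tested regions were below 0.05. Without control rat 5 it was 1, against 10 of all 294202. When each library had to hold 10 or more tags in a region it was 6, against 56 of all 70434. The median log2 fold change of the tested proximal regions was -0.02, that of the density-matched interior was -0.06, and their difference was 0.04.

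Calls at the proximal ends followed local density. In stretches with 5 to 9 regions within 50 kb, 5.56% of 468 tested proximal regions were hypomethylated, none was hypermethylated and the median log2 fold change was -0.21. In stretches with 30 to 39 regions within 50 kb, 0.258% of 776 were hypomethylated, 1.03% were hypermethylated and the median was 0.06. Interior regions of these 2 densities had 4.50% and 0.409% hypomethylated. The median log2 fold change of the proximal regions lay above that of interior regions of the same density in every bin but that of 40 or more, where the values were 0.07 and 0.08.

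**Figure D1:**
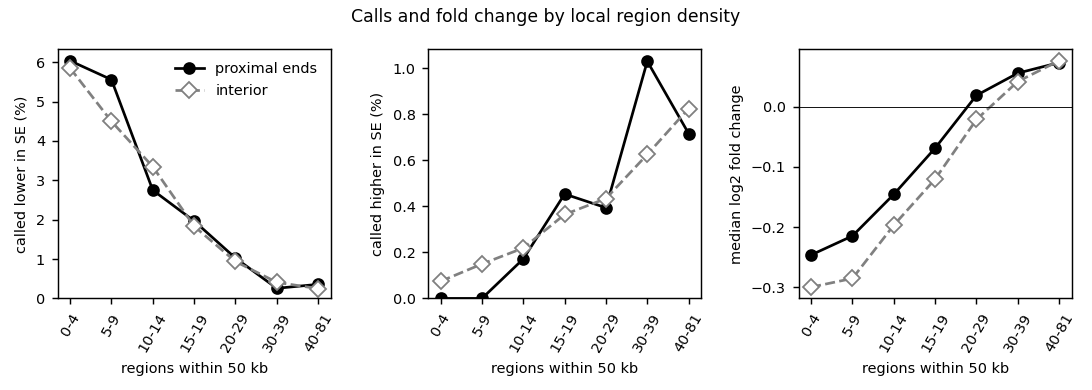
Share of tested regions called lower or higher in SE (left and middle, %) and median log2 fold change of SE against control (right), by how many regions lay within 50 kb. Filled points are the proximal ends and open diamonds the interior. Both fall from about 6% called lower in the sparsest bin (6.03% and 5.85%) to under 0.5% in the densest bins, while the median rises from below 0 to above 0.

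The libraries themselves differed in the same respect. The density slope of a library is the slope of its log2 deviation from the mean library on log2(density + 1) over all tested regions. It was 0.024, -0.064, -0.12 and -0.090 in control rats 1, 3, 4 and 5, and 0.049, 0.024, 0.081 and 0.099 in SE rats 6, 8, 9 and 10. Only control rat 1 reached the range of the SE rats, and the part of this slope in the proximal calls was not tested. With offsets that remove each library's trend on density, 35 proximal regions were hypomethylated (0.656% of all tested regions were) and 39 hypermethylated (0.573% of all), in place of 79 and 21. With all 10 libraries the counts were 11 and 8, against 0.215% and 0.282% of all tested regions.

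The hypomethylated regions were unevenly spread over the 19 ends. The end of chromosome 9 held 22, that of chromosome 2 held 12 and that of chromosome 3 held 9, together 54.4% of the 79. On chromosome 9 they were 11.8% of 187 tested regions, against 2.63% in interior regions of matched density, and on chromosome 2 they were 6% of 200, against 2.48%. The ends of chromosomes 1, 10, 12, 16, 17 and 18 held none, and those of chromosomes 1 and 18 held no call in either direction. The hypermethylated regions lay at the ends of chromosomes 7 (6), 3 (5), 16 (4), 6 (2) and, with 1 each, 10, 12, 17 and 19.

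The 9 ends with a median density below 20 and the 10 denser ends differed in both measures. In the sparse ends 62 of 1395 tested regions were hypomethylated (4.44%), and all 9 had a median log2 fold change below 0. In the denser ends 17 of 3034 were hypomethylated (0.560%), and the median was above 0 in 7 of the 10. The lowest median was -0.44 at the end of chromosome 8, and the highest was 0.10 at that of chromosome 12. Set against interior regions matched to each end, the median was higher at 12 ends and lower at 7.

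**Figure D2:**
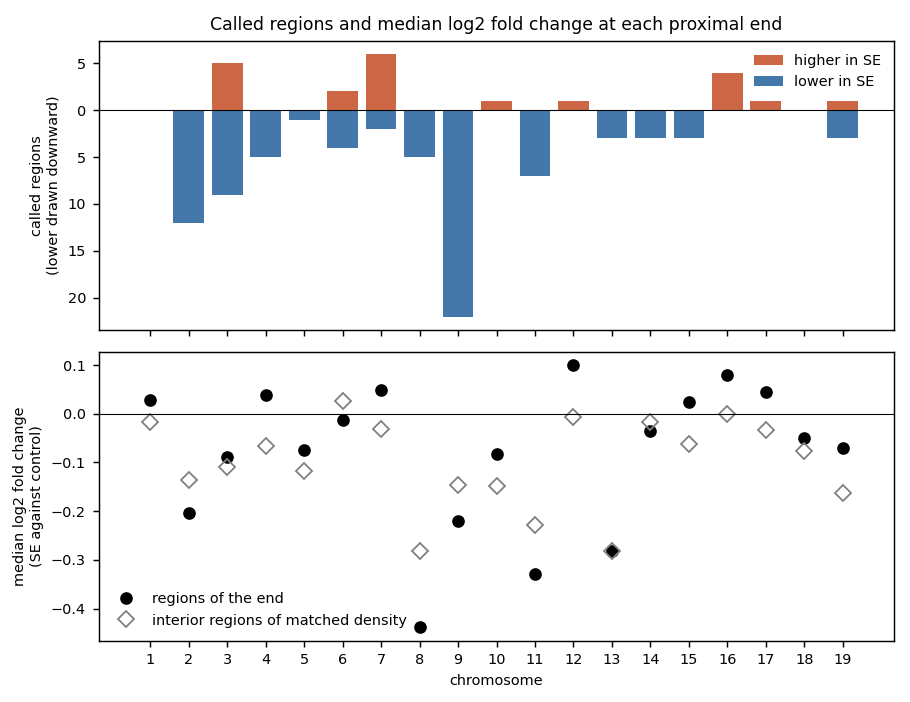
Top: number of regions called lower (downward) and higher (upward) in SE at the proximal end of each chromosome. Bottom: median log2 fold change of SE against control in the tested regions of each end (filled) and in interior regions weighted to the same local density (open diamonds). Chromosome 9 holds 22 of the 79 lower calls, and the lowest median, -0.44, is that of chromosome 8.

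Within the ends, hypomethylated regions lay mostly in the first 2 Mb. Their share was 2.89% of 1213 tested regions in the first megabase, 2.28% of 1405 in the second and 0.663% of 1811 in the third, and 0.678% of 6493 in the 3 Mb that followed. Interior regions of matched density had 2.23%, 1.91% and 1.25% for the first 3 steps. The median density rose along the same steps, from 17 to 20 and 27. Without chromosome 9 the shares at the proximal ends were 2.36%, 1.4% and 0.632%, against 2.20%, 1.86% and 1.21% in interior regions of matched density.

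The 8 ends beside centromeres had 51 hypomethylated regions among 1767 tested (2.89%), and the 11 short-arm ends had 28 among 2662 (1.05%). Interior regions of matched density had 1.84% and 1.65%. Without chromosome 9 the share at ends beside centromeres was 1.84% (29 of 1580). Hypermethylated regions were 0.509% and 0.451% of the tested regions of both kinds of end.

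At the end of chromosome 9, 2 control rats were high. The 22 hypomethylated regions spanned positions 271836 to 2530413, and 20 of them lay in the intervals 717249 to 854105 (6) and 995065 to 1292685 (14). In the second of these, 20 of 21 tested regions had a log2 fold change below 0, with a median of -0.815. The 14 hypomethylated regions that set the limits of this interval are among the 21, so these values follow in large part from the choice. Levels are given as CPM, counts scaled by a library total. For single regions this was the normalized total of the tested regions. For windows and megabase steps it was the normalized total of all windows, and for intervals all tags of the library (CPM of library tags). Values on different scales cannot be set against each other. All regions of that interval together held 86.5, 238, 232 and 105 CPM of library tags in control rats 1, 3, 4 and 5, and 118, 91.1, 75 and 108 in SE rats 6, 8, 9 and 10. Control rats 3 and 4 were the highest of the 8 rats used, and control rats 1 and 5 lay within the range of the SE rats. Control rat 2 had 71.7 and SE rat 7 had 29.

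This held region by region. Control rats 3 and 4 lay above every SE rat in all 22 regions and were the 2 highest of the 8 rats in 21, whereas control rat 1 lay below the highest SE rat in 15 and control rat 5 in 16. In 3 of the 22 all control rats lay above all SE rats. Of the 22 regions, 6 were still called without control rat 3, 5 without control rat 4, 22 without control rat 1 and 20 without control rat 5. With density offsets 15 were still called. The region with the smallest p of all proximal ends, chr9:717249-718955, had a log2 fold change of -1.01 ± 0.22 (SE of the estimate) and an adjusted p of 0.126 in edgeR's quasi-likelihood test.

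**Figure D3:**
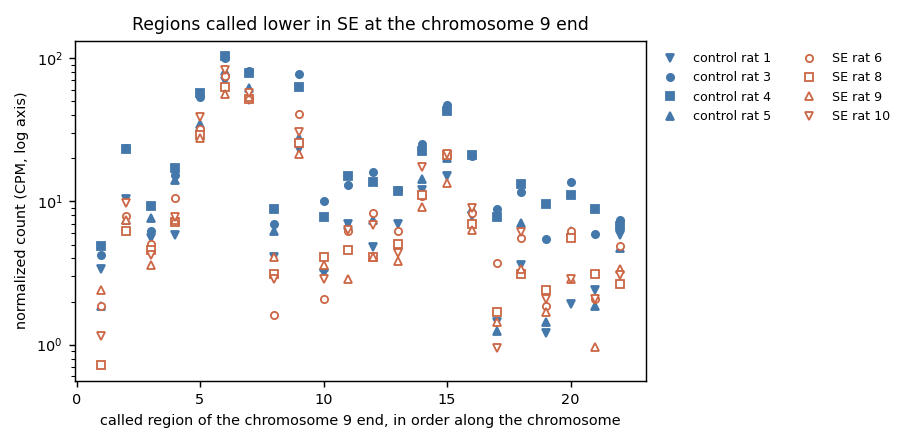
Normalized count (CPM, log axis) of each rat in the 22 regions called lower in SE at the proximal end of chromosome 9, in order along the chromosome. Filled symbols are control rats and open symbols SE rats. Control rats 3 and 4 are the 2 highest of the 8 rats in 21 of the 22 regions.

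Wide regions of the proximal ends were mostly lower in SE. All 93 regions of at least 2 kb passed the filter. Of these 79 had a log2 fold change below 0 (84.9%), 14 were hypomethylated (15.1%) and none was hypermethylated. Of 1616 wide interior regions 44.6% were below 0, 4.64% were hypomethylated and 21 were hypermethylated. The wide proximal regions lay in sparser stretches (median density 19, against 40). Where fewer than 20 regions lay within 50 kb, 8 of 50 wide proximal regions (16%) and 16 of 207 wide interior regions (7.73%) were hypomethylated, and 92.0% and 77.8% had a log2 fold change below 0. At 20 to 29 regions 15.6% and 11.8% were hypomethylated, and 87.5% and 65.7% were below 0. At 30 or more, 1 of 11 wide proximal regions and 29 of 1155 wide interior regions were hypomethylated. There 5 of the 11 (45.5%) and 33.9% of the 1155 were below 0, so wide proximal regions were not mostly lower in dense stretches.

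The wide proximal regions took 0.540%, 0.609%, 0.637% and 0.598% of the tags of control rats 1, 3, 4 and 5. They took 0.564%, 0.545%, 0.506% and 0.493% in SE rats 6, 8, 9 and 10, so that SE rats 6 and 8 lay above control rat 1 and all SE rats lay below the other 3 control rats. The count of 14 was 27 without control rat 1, 5 without control rat 3, 6 without control rat 4 and without SE rat 9, and 9 without SE rat 10, while 76 to 81 of the 93 stayed below 0 whichever rat was left out. With density offsets 69 were below 0 and 8 were called. Chromosome 2 held 37 of the 93, chromosome 3 held 12 and chromosome 9 held 10. Outside chromosomes 2 and 9, 34 of 46 were below 0 and 5 were hypomethylated.

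The end of chromosome 2 was captured more strongly than nearly any other stretch. Its 334 regions had a mean of 4952 CPM over the 8 rats, number 3 in order among 917 windows of 3 Mb, where the median window had 988. Its highest regions were chr2:1281817-1293269, chr2:1323384-1337855, chr2:1353350-1363037 and chr2:1272642-1280984, of 8342 to 14471 bp. The first held 707, 812, 856 and 803 CPM in control rats 1, 3, 4 and 5 and 756, 721, 655 and 622 in SE rats 6, 8, 9 and 10. SE rats 6 and 8 lay above control rat 1, so the groups overlapped. Its log2 fold change was -0.21 ± 0.08 (SE of the estimate; adjusted p = 0.61 in edgeR's quasi-likelihood test), but 0.01 with density offsets and 0.13 with loess offsets on mean count. SE rat 7 held 404 tags there in a library of 14655629, against 2714 to 3885 tags in the 8 libraries used. Nearby, chr2:175728-201722, whose limits were set by its 4 hypomethylated regions, held 8 tested regions. All 8 were below 0, but the 4 that set the limits are among them.

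Chromosome 3 changed direction along its first 3 Mb. Its 9 hypomethylated regions lay between positions 113351 and 1501269, where 5 to 15 regions lay within 50 kb of each. Its 5 hypermethylated regions lay between positions 2726603 and 2913135, where 28 to 37 did. All regions of the first 2 Mb together held 1557, 1702, 1808 and 1761 CPM in control rats 1, 3, 4 and 5 and 1537, 1517, 1479 and 1453 in SE rats 6, 8, 9 and 10. Those of the third megabase held 297, 293, 288 and 292 CPM in the control rats and 310, 317, 320 and 321 in the SE rats, in the same order. In both stretches the groups did not overlap. With density offsets 1 of the 9 and 4 of the 5 were still called. Leaving out a rat kept 5 to 9 of the hypomethylated and 1 to 5 of the hypermethylated regions, with 1 left without SE rat 8 and 2 without control rat 5.

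Sums over 1 Mb steps were tested over all chromosomes in the same way, with 25.5% of 2671 windows called lower and 23.7% called higher at an adjusted p below 0.05. On chromosome 3 the log2 fold changes of the 3 steps were -0.18 ± 0.05, -0.25 ± 0.05 and 0.12 ± 0.03 (SE of the estimate), and all 3 were called, with adjusted p of 0.011, 0.0074 and 0.0077 in edgeR's quasi-likelihood test. On chromosome 7, which held 6 hypermethylated regions between positions 1284516 and 1916378, the second step was called higher (0.15 ± 0.05, adjusted p = 0.020 in the same test), and the first was at -0.10 ± 0.04 with an adjusted p of 0.071 in edgeR's test. Over the 19 ends, 8 of the first, 4 of the middle and 3 of the last steps were lower, and 3, 3 and 6 were higher. Lower steps were thus most frequent at the outermost megabase of the proximal ends, which was also the sparsest. The median density was 17, 20 and 27 in the first, middle and last steps, and these sums were not matched for density. Together 15 of the 57 steps were lower and 12 higher, close to the shares of all windows.

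Whole ends were compared as windows of 3 Mb. Of the 19 proximal windows 4 were lower in SE (chromosomes 3, 8, 11 and 13), 3 were higher (chromosomes 12, 16 and 17) and 12 were not called, with edgeR's adjusted p below 0.05 as the threshold. Over all 917 windows 28.9% were lower and 28.0% higher, so the proximal ends were called no more often than other windows. How many of the 917 had no overlap between the groups was not counted, so non-overlap below is not shown to be particular to the proximal ends. Log2 fold changes of the 19 ranged from -0.29 to 0.13. Chromosome 8 had the fewest regions (164) and chromosome 6 the most (889).

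The window of chromosome 8 held 208, 228, 248 and 237 CPM in control rats 1, 3, 4 and 5 and 194, 188, 197 and 172 in SE rats 6, 8, 9 and 10. All SE rats lay below all control rats, and the log2 fold change was -0.29 ± 0.07 (SE of the estimate; adjusted p = 0.010 in edgeR's quasi-likelihood test). Chromosomes 3 and 13 were the other lower ends without overlap. Chromosome 13 had 244 to 288 CPM in control and 213 to 241 in SE, and changed by -0.26 ± 0.07. Chromosome 11 changed by -0.23 ± 0.06 and chromosome 3 by -0.14 ± 0.03. On chromosome 11 control rat 1 (399 CPM) lay just below SE rat 8 (400 CPM).

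Chromosome 16 was higher in SE. Its window held 1381, 1338, 1286 and 1305 CPM in control rats 1, 3, 4 and 5 and 1430, 1457, 1449 and 1472 in SE rats 6, 8, 9 and 10, without overlap, and changed by 0.13 ± 0.02 (SE of the estimate; adjusted p = 0.0098 in edgeR's quasi-likelihood test). All 3 of its 1 Mb steps were called higher. Chromosome 12 also changed by 0.13 ± 0.03, with control rat 1 (884 CPM) close below SE rat 8 (894 CPM), and chromosome 17 by 0.09 ± 0.02. Groups overlapped on neither.

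All 7 called ends kept their call whichever of the 8 rats was left out. With offsets on local density, chromosomes 12, 16 and 17 were still higher, together with chromosomes 10 and 19, and of the 4 lower ends only chromosome 3 was still lower (-0.07 ± 0.02), together with chromosome 6. There 16.5% of all windows were lower and 15.8% higher. With those offsets the log2 fold changes of chromosomes 8, 11 and 13 were -0.05, -0.01 and -0.01. With loess offsets on mean count they were -0.04, -0.03 and 0.01 and were not called either, chromosome 17 lost its call (edgeR's adjusted p = 0.053), and chromosomes 3, 12 and 16 kept theirs. Chromosome 9 was not called: its window held 950, 1356, 1335 and 1042 CPM in control rats 1, 3, 4 and 5 and 1020, 948, 890 and 1069 in SE rats 6, 8, 9 and 10. Its log2 fold change was -0.25 ± 0.11, with an adjusted p of 0.061 in edgeR's quasi-likelihood test. With all 10 libraries none of the 19 was called.

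**Figure D4:**
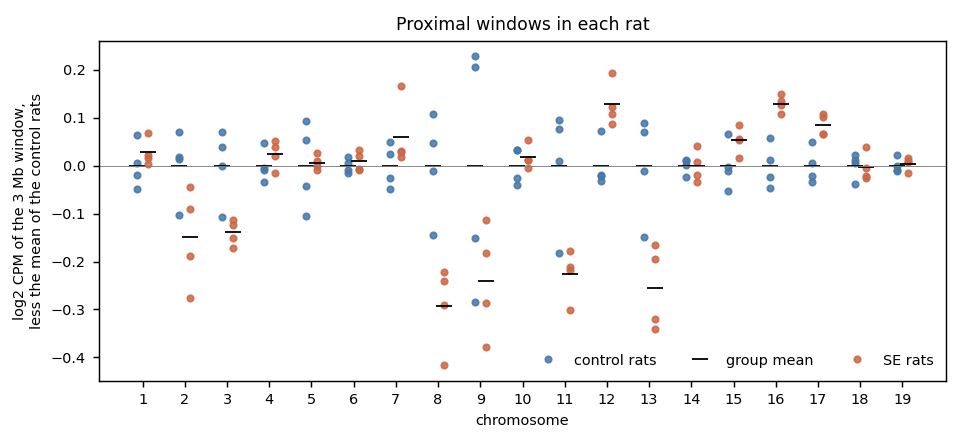
Log2 CPM of the 3 Mb proximal window of each chromosome in each rat, less the mean of the 4 control rats of that chromosome (points), with group means (dashes). Control and SE rats do not overlap on chromosomes 3, 8, 12, 13, 16 and 17, and the control rats of chromosome 9 fall into a high and a low pair. The share of windows without overlap elsewhere was not counted, so non-overlap is not shown to be particular to these ends. Of all 917 windows, 28.9% were called lower and 28.0% higher.

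Among hypomethylated regions without overlap between control and SE rats, chr3:143742-145007 had the smallest p. It held 407, 482, 543 and 525 CPM in control rats 1, 3, 4 and 5 and 400, 374, 371 and 353 in SE rats 6, 8, 9 and 10. Control rat 1 lay close above SE rat 6, and the other control rats lay well above all SE rats. The log2 fold change was -0.38 ± 0.09 (SE of the estimate; adjusted p = 0.17 in edgeR's quasi-likelihood test), but -0.19 with density offsets, -0.08 with loess offsets on mean count and 0.09 with all 10 libraries, in which SE rat 7 held 904 CPM. It was among the 5 most strongly captured proximal regions. It lay within chr3:113351-164441, a stretch of 51.1 kb whose limits were set by its 5 hypomethylated regions. All 10 tested regions of the stretch were below 0, but the 5 that set the limits are among them. SE rat 7 was the highest of the 10 rats over that stretch, with 947 CPM of library tags against 322 to 641.

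The other 4 regions chosen by the smallest p among called regions without overlap were chr9:1070556-1071586, chr9:995065-995846, chr2:194600-199172 and chr8:1741156-1741835. The first held 7.01, 13.1, 15 and 6.82 CPM in control rats 1, 3, 4 and 5 and 6.24, 4.56, 2.90 and 6.30 in SE rats 6, 8, 9 and 10, and its groups were apart only by the distance between control rat 5 and SE rat 10. That of chromosome 8 held 3.63, 5.68, 3.36 and 4.96 CPM in the control rats and 1.62, 1.68, 1.69 and 1.91 in the SE rats. Its groups did not overlap, which the rule required, at 7 to 24 tags per library. The nearest rats across the groups were control rat 4 with 13 tags and SE rat 10 with 10 tags. Its log2 fold change was -1.34 ± 0.34 (SE of the estimate; adjusted p = 0.38 in edgeR's quasi-likelihood test). That of chromosome 2, 4572 bp long, held 40.4, 47.5, 47.3 and 46.1 CPM in the control rats and 27.1, 39.8, 29.9 and 28.3 in the SE rats. SE rat 8 came close to control rat 1 there, and the log2 fold change was -0.54 ± 0.14.

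Over the 79 hypomethylated regions, the size of the log2 fold change ranged from 0.22 to 1.53 with a median of 0.93. They lay in sparse stretches (median density 11) and were longer than most (median 710 bp), as were hypomethylated interior regions (14 and 581 bp). Hypermethylated regions were longer than most as well, with medians of 608 bp at the proximal ends and 672 bp in the interior. In 36 of them the groups did not overlap. The share among hypomethylated interior regions was not counted, so this number is not shown to be particular to the proximal ends. With density offsets 78 of the 79 were still below 0 and 33 were still called.

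Hypermethylated regions held fewer tags than these. The 5 chosen by the same rule were chr19:689916-690440, chr7:1572487-1573735, chr3:2760563-2761088, chr16:1247576-1248477 and chr6:1988575-1988998. The first held 1.69, 1.48, 1.29 and 0.414 CPM in control rats 1, 3, 4 and 5 and 2.31, 3.12, 3.38 and 3.82 in SE rats 6, 8, 9 and 10. All SE rats lay above all control rats, at 2 to 20 tags per library, and the log2 fold change was 1.39 ± 0.41 (SE of the estimate; adjusted p = 0.49 in edgeR's quasi-likelihood test). That of chromosome 7 held 5.56, 4.20, 4.14 and 4.55 CPM in the control rats and 7.86, 9.60, 7.24 and 6.69 in the SE rats. That of chromosome 16 held 3.87, 3.21, 3.10 and 2.48 CPM in the control rats and 5.09, 5.28, 6.03 and 6.49 in the SE rats. Their log2 fold changes were 0.75 ± 0.24 and 0.86 ± 0.28, with adjusted p of 0.52 and 0.54 in edgeR's quasi-likelihood test. Non-overlap of the groups in all 5 regions follows from the rule that chose them.

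The 21 hypermethylated regions had log2 fold changes of 0.59 to 1.39 with a median of 1.06 and lay at a median density of 30. In 11 of them the groups did not overlap. The share among hypermethylated interior regions was not counted, so this number too is not shown to be particular to the proximal ends. With density offsets all 21 were above 0 and 16 were still called.

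**Figure D5:**
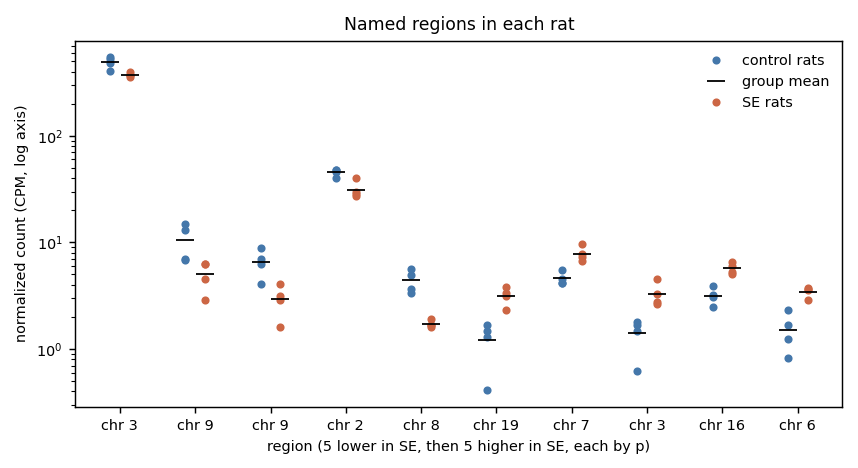
Normalized count (CPM, log axis) of each rat (points) and group means (dashes) in the 5 hypomethylated and 5 hypermethylated proximal regions with the smallest p among those without overlap between the groups. The first, on chromosome 3, lies near 375 CPM in SE and 489 CPM in control, and most of the others lie below 16 CPM.

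The member with the smallest p of each of the 19 ends was lower in SE at 10 of them, and adjusted p ranged from 0.126 to 0.62 in edgeR's quasi-likelihood test. Near the limit of 3 Mb, chr14:2998309-2998931 and chr3:2997556-2998145 lay just inside it, with log2 fold changes of -0.22 and 0.10. Just outside lay chr15:3000280-3000728 and chr12:3000882-3001315, with log2 fold changes of -0.40 and -0.25.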

How the data were processed

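The deposited values were tag counts per region and library, without normalization. The authors aligned single-end tags to RN4 with BWA, called differences between each pair of libraries with MACS and merged them with BEDTools. By these calls the table holds regions that differed between at least 1 pair. The methods state that duplicate tags were removed. Whether this holds for the deposited counts was not tested. The region chr3:143742-145007, 1265 bp long, held 10197 tags in SE rat 7. No column belonged to another series. Proximal regions and the lists here were chosen with earlier results of these data known.

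As in the study's methods, regions with a summed count under the 50th percentile over the 8 libraries were removed. The rest were normalized by TMM and tested with edgeR's quasi-likelihood test (version 4.0.16, R 4.3.3), two-sided, without covariates, called at an unadjusted p below 0.01. Benjamini-Hochberg adjustment ran over all regions. Region CPM used the tested regions only. Windows of 3 Mb summed all regions and were called at an adjusted p below 0.05. Windows needed 10 regions and a mean of 10 counts. Tested proximal regions held a median of 12.1 counts per library. Interior regions were weighted within 20 strata of density. Density offsets came from a lowess (span 0.3) of each library's deviation on density. P-values measure the spread between rats. All pairs of libraries differed beyond sampling noise over the proximal regions (chi-square per degree of freedom 1.30 to 1.97).

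In simulated data at p below 0.01 the region test found 58% of 100 regions simulated with a log2 fold change of 1 and called 0.957% of unchanged regions. At an adjusted p below 0.05 the same test found 8% of the 100. The simulated counts had 1 common dispersion and no trend of libraries on density, unlike the real libraries. The share of unchanged regions called may therefore differ in the real data.

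Named regions were, by a fixed rule, those with an adjusted p below 0.05, the 5 per direction with the smallest p among called regions without overlap, the smallest p of each end, the 5 with the highest count and those nearest the 3 Mb limit. Intervals of at least 4 hypomethylated regions with gaps up to 100 kb, and the stretches of chromosomes 3 and 7, were chosen after their values were seen. Alternatives were edgeR's exact test, DESeq2 (version 1.42.0), scaling to upper quartiles or library totals, loess offsets (limma version 3.58.1), density offsets, all 10 libraries, other filters, end lengths, window sizes and density radii, and each rat left out. Leaving out the chromosome 9 end was added after seeing the data.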

Additional observations from a re-analysis of the deposited data

Results flagged for a closer look

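Of 78 groups of 4 rats examined (proximal windows, library measures and named regions), 4 had 1 rat far from the other 3, and chance flags about 1 in 20 groups. In the window of chromosome 12, control rat 1 held 884 CPM and the other control rats 822 to 830. In the window of chromosome 7, SE rat 10 held 1287 CPM and the other SE rats 1162 to 1172. In chr6:1988575-1988998, SE rat 10 held 2.87 CPM and the other SE rats 3.6 to 3.7. The median deviation of the proximal regions less that of the density-matched interior was 0.017 (log2) in SE rat 10 and 0.0015 to 0.0017 in the other SE rats.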

How the results depend on the processing

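The numbers of hypomethylated and hypermethylated proximal regions, 79 and 21, became 30 and 5 with DESeq2, 35 and 39 with density offsets, 11 and 8 with all 10 libraries, and 47 and 7 with at least 10 counts in every library. With DESeq2 these were 0.677% and 0.113% of the tested proximal regions, against 0.349% and 0.139% of all tested regions. With at least 10 counts they were 4.11% and 0.612% of 1143, against 1.39% and 0.618% of all. Hypermethylated regions numbered 42 of 8621 tested without a filter (0.487%) and 42 of 8856 with ends of 5 Mb (0.474%), against 0.474% in the main fit. Over all tested regions 0.525% and 0.584% were hypermethylated in these settings. Leaving out each rat gave 50 (without control rat 4) to 116 (without control rat 1) hypomethylated and 12 (without control rat 5) to 30 (without SE rat 9) hypermethylated regions. Over all tested regions the same fits had 0.857% and 1.32% hypomethylated and 0.508% and 0.554% hypermethylated. Without chromosome 9, chosen after seeing the data, the proximal counts were 57 and 21. The difference of medians from the density-matched interior, 0.04, was -0.0186 with all 10 libraries, 0.0014 with at least 10 counts, 0.0226 with ends of 5 Mb, -0.0194 without matching and 0.0264 to 0.0476 with each rat left out. Of 19 windows, the 4 lower and 3 higher became 7 and 1 with upper-quartile normalization and 2 and 5 with density offsets. They became 0 and 0 with all 10 libraries, and 5 of 19 were higher with loess offsets. With windows of 1 Mb, 15 of 57 were lower and 12 higher, against 25.5% and 23.7% of all such windows. Over all windows 46.9% were lower and 13.6% higher with upper-quartile normalization, and 17.7% were higher with loess offsets. Leaving out each rat gave 4 to 6 lower and 3 to 4 higher windows. The cause of these shifts was not tested. Of 265 values of named regions under alternatives 217 kept direction and side of the threshold, and 10 changed sign. These were chr3:143742-145007 with all 10 libraries (0.0865), the 4 highest regions of chromosome 2 with loess offsets (0.125, 0.109, 0.0652 and 0.148) and 3 of them with density offsets (0.0137, 0.0273 and 0.0700), and chr3:2997556-2998145 without control rat 3 (-0.0405) and without SE rat 9 (from -0.0570 to 0.284 over the rats left out). At a median of 12.1 counts a library, single proximal regions are limited by counting error, and a change that missed the threshold is not shown to be absent. No paired analysis was possible because control and SE rats share no number.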
